A study of Mus musculus with 2 samples.

Results

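Control cluster 0 was the largest of 15 clusters of cells in stroma grown as organoids from mouse salivary glands without FGF2. Its members were the 116 genes that the authors' deposited table listed for it, of 4419 genes listed for any cluster of the control library. The cluster held 16.9% of the control cells, which is 847 of the 5023 captured cells if all captured cells are in the table. The series compared stromal subpopulations in organoids, small tissue-like aggregates in culture, with and without the growth factor FGF2. Glands were from embryonic day 16 of the outbred CD-1 stock, and the age label adds a 7 whose unit the labels do not state. There was 1 control library and 1 FGF2 library (10107 cells captured), both labelled as salivary gland stroma of that stock and age, and the sources used here do not give the FGF2 dose and timing. Neither group had a replicate, the depth per cell was unknown, and cell barcodes were not used here. No test was made.

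Embryonic gland mesenchyme surrounds the branching epithelium. Its fibroblasts lay down collagens and fibrillin microfibrils, secrete growth factors, chemokines and Wnt modulators, and can turn on contractile genes. Several genes that lead cluster 0 are known from immature mesenchyme: Fbn2 encodes the fibrillin of developing tissues, Dlk1 a membrane protein that holds back differentiation of precursor cells, and Sfrp1 a secreted protein that binds Wnt ligands.

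The genes listed for cluster 0 held matrix and signalling genes on both sides, and the higher ones were only modestly higher. Fibrillar collagens and microfibril genes (Fbn2, Mfap4, Col3a1, Thbs2), proteoglycans (Ogn, Podn), secreted signals (Vegfd, Ptn, Rspo3, Cxcl12) and 4 imprinted genes stood on the higher side. Other genes of the same kinds were lower, with the proteoglycan Lum, the secreted signals Pdgfa and Ccl8, the Wnt modulator Nkd2 and the basement membrane collagens Col15a1 and Col18a1. Spp1, Mmp3, Mgp, Crabp1 and Saa3 stood on the lower side, with protease inhibitors, cell division genes and the contractile gene Acta2. The table listed 55 genes as higher and 61 as lower than in all other control cells. Of the 4419 genes listed for any control cluster these are 1.24% and 1.38%, and of 19070 genes 0.288% and 0.32%. The number 19070 is inferred, as the median ratio of the authors' adjusted to their unadjusted p-values. The sources used here do not state how many genes were tested. The clusters were made from the expression of these same cells, so the counts are a description and no test. Cluster 0 had the fewest listed genes of all 15 clusters. The stromal clusters 1, 2, 3, 5 and 6 had 423, 391, 236, 370 and 295.

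Each listing gives a ratio and 2 shares. The ratio sets the average in the cluster against that in all other control cells, each with an offset of 1, which pulls ratios of weakly expressed genes towards 1. The shares are the percentages of cells, inside and outside the cluster, with a value above 0. All ratios and shares of clusters given here are from the authors' deposited table. The ratios of the 55 higher genes ran from 1.29 to 2.05 with a median of 1.43, and those of the 61 lower genes from 0.231 to 0.778 with a median of 0.698. All 55 higher genes had a larger share in cluster 0 than in the other cells (medians 95.4% and 69.4%). The lower genes did not have the mirror image of this pattern. Of the 61, 32 had a smaller share in cluster 0, 28 a larger one and 1, Gm42418, the same. The median shares of the 61 were 52.5% in cluster 0 and 54.7% in the other cells. A lower average in cluster 0 thus often went with an equal or larger share of cells. The other cells include clusters 4 and 9 (13.4% of the cells), in which the genes listed had median shares of 10.9% and 7.00%, and values without them follow the account of the lower genes.

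**Figure D1:**
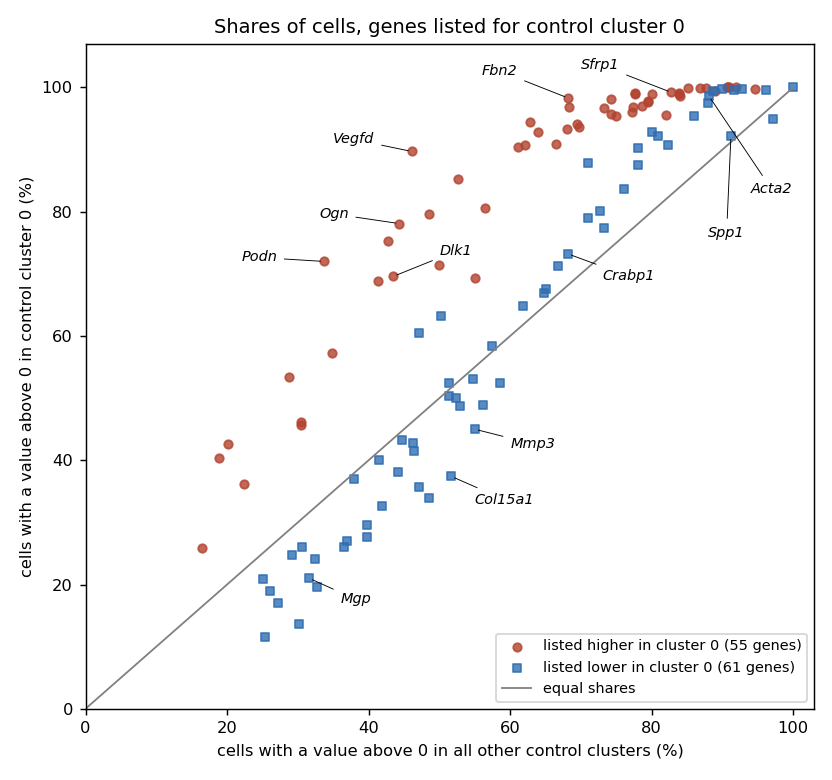
Each point is a gene listed for control cluster 0. The x axis gives the percentage of all other control cells with a value above 0, the y axis that of the cells of cluster 0, both from the authors' deposited table; red circles are the 55 genes listed higher, blue squares the 61 listed lower, and the line marks equal shares. All red circles lie above the line, while 28 blue squares, Acta2 and Spp1 among them, also do.

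The label of stromal cells was checked against 10 fibroblast markers. Col1a1, Col1a2 and Col3a1, the chains of the main fibrillar collagens, were listed higher in cluster 0, each with a value above 0 in 100% of its cells. Lum was listed lower. The other 6 (Pdgfra, Dcn, Thy1, Prrx1, Twist1, Vim) were not listed for cluster 0. Over the clusters that did not list them, cluster 0 among these, their mean share was between 73.7% and 97.0%. Of 16 lists of markers of other cell types and of dividing cells, 1 had a member listed higher in cluster 0 and 2 had a member listed lower. The higher one was Stmn2, the lower ones Acta2 and Cdk1. The neutrophil, lymphocyte and erythroid lists had 0 members among the genes listed for any control cluster, so they could have none here. The mast cell, adipocyte, skeletal muscle and chondrocyte lists had 1 each. No epithelial, endothelial, glial or macrophage marker was listed for cluster 0. All control listings had a share of at least 25.1% inside or outside the cluster. The most frequent of these markers, S100b, was found in 19.8% of all control cells. None of them could thus be listed lower for cluster 0, and a higher listing needed a share of that size there. Over the clusters that did not list them, the 7 epithelial markers had mean shares between 0.50% and 3.27%. The 7 macrophage markers ranged from 0.30% to 13.3%, the 7 endothelial ones from 0.40% to 14.7% and the 7 glial ones from 0.40% to 19.1%.

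Fbn2 had the largest ratio of the cluster (2.05), with a value above 0 in 98.3% of its cells and 68.2% of the other cells. By cluster, its share was 97.3% in cluster 3, 77.5% in cluster 1, 76% in cluster 6 and 71.0% in cluster 2. It was lowest in epithelial-like cluster 9 (6.3%) and in cluster 4 (7.5%). Clusters 5, 7 and 8 did not list it and had a mean share of 91.5%. Cluster 3 was therefore the one listed cluster whose share came near that of cluster 0. To compare clusters with each other, each ratio was converted into a level relative to all control cells, where 1 is the average of the library. The level of Fbn2 was 1.74 in cluster 0, 1.41 in cluster 3 and 0.783 in cluster 1, so cluster 0 lay highest by level as well as by share.

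Vegfd, a ligand of the receptors that drive growth of lymphatic vessels, had a ratio of 1.93. Its shares were 89.7% in cluster 0 and 46.1% in the other cells. It was also listed higher in cluster 3, with a share of 97.3%, and lower in clusters 2 (38.7%), 1 (26.3%) and 6 (20.1%). Its level was 1.67 in cluster 0 against 2.31 in cluster 3, so it led cluster 0 without being highest there. Sfrp1 followed the same pair of clusters, with shares of 99.2% in cluster 0 and 99.1% in cluster 3 and levels of 1.53 and 1.49. In cluster 5, which was led by contractile genes, Sfrp1 kept a share of 95.3% at a level of 0.581.

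Dlk1 and Ogn were not listed for cluster 3. Dlk1 had a ratio of 1.84, with shares of 69.6% in cluster 0 and 43.5% in the other cells. The next highest listed share was 63.4%, in the small cluster 12 (0.828% of the cells), at a level of 1.44 against 1.61 in cluster 0. The 6 clusters that did not list Dlk1, clusters 1, 2, 3 and 5 among them, had a mean share of 54.5% and a level of 0.959. Ogn encodes osteoglycin, a small leucine-rich proteoglycan of the matrix. It had a ratio of 1.81 and shares of 78.1% and 44.3%. Cluster 2 came next with 54.7% of its cells, at a level of 1.26 against 1.59, and cluster 6 was low (35.7%, 0.577). Ogn had the largest gap between cluster 0 and the next listed cluster among these 5 leading genes, 23.4 percentage points. The 3 clusters that did not list Ogn had a mean share of 59.5%, which is also under that of cluster 0.

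**Figure D2:**
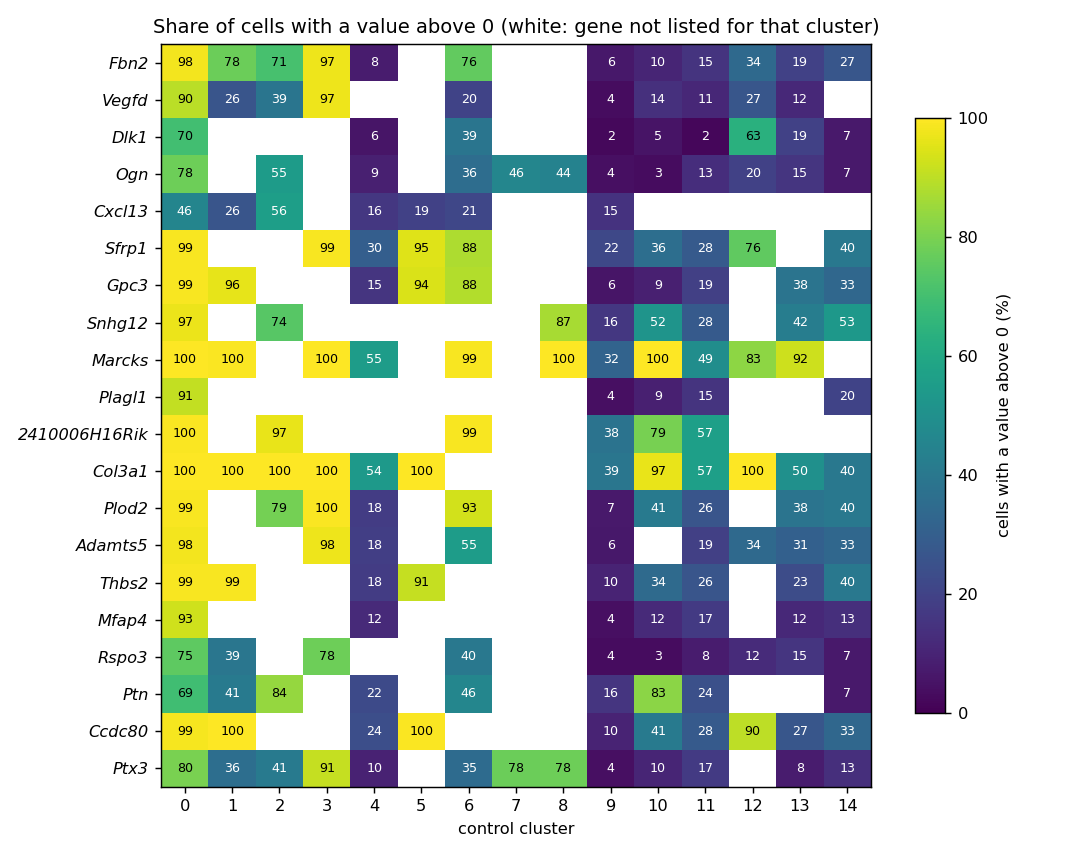
Share of cells with a value above 0 (%, colour and printed number) for the 20 genes with the largest ratio in control cluster 0 (rows) in each of the 15 control clusters (columns), from the authors' deposited table. White cells are clusters for which the gene was not listed, which does not mean that it was absent; cluster 3 holds the shares nearest to those of cluster 0 for Fbn2, Vegfd and Sfrp1, and cluster 9 the lowest ones for most of the genes.

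The start regions of Vegfd and Ogn are shown because both are among the leading genes of cluster 0. Vegfd was also listed higher in cluster 3, and Ogn was not listed there. Each runs from 250 bases before to 50 bases after the annotated start, on the plus strand of GRCm38.p6 (RefSeq). Vegfd lies at chrX:164373522-164402650 and its region at chrX:164373272-164373571. Ogn lies at chr13:49608015-49624501 and its region at chr13:49607765-49608064. Capitals mark TATAAA, the TATA box core, read on either strand, with overlapping matches joined.
Vegfd: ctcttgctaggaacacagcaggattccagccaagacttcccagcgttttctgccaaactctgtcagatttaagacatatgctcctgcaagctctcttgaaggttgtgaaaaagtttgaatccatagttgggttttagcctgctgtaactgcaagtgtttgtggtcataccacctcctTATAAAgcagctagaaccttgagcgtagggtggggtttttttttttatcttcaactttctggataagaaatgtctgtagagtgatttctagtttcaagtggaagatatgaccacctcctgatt
Ogn: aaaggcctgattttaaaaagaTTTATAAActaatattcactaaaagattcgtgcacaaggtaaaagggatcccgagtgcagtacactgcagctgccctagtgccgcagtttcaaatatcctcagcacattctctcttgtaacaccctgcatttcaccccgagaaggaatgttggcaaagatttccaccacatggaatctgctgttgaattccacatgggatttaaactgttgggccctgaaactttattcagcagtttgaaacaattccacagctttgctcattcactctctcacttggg
A match is a description of letters and not a site. The first base of TATAAA lay 73 bases before the annotated start in Vegfd and 227 bases before it in Ogn. TATAAA on either strand was found in 15.7% of the 27025 RefSeq start regions of this length. It was found in 7 of the 37 higher genes and 9 of the 46 lower genes of cluster 0 that had an entry.

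The list with the most members on the higher side was that of fibrillar and associated collagens. All 7 members listed from its 22 genes were higher in cluster 0, and the other 15 were not listed for it. They were Col3a1 (ratio 1.60), Thbs2 (1.58), Col1a1 (1.39), Col11a1 (1.34), Col1a2 (1.32), Fn1 (1.31) and Col5a2 (1.30). Their median natural log ratio was 0.29, against -0.26 over all 116 genes. Without clusters 4 and 9 among the other cells, only Col3a1 (0.38) and Thbs2 (0.38) kept the listing size of 0.25. Col11a1 (0.23), Col1a1 (0.21), Fn1 (0.18), Col5a2 (0.17) and Col1a2 (0.15) fell under it. Col3a1, Col1a1 and Col1a2 were listed with a value above 0 in 100% of the cells of cluster 0, against 90.9%, 90.7% and 91.9% of the other cells. By level, Col3a1 stood at 1.45 in cluster 0, 1.30 in cluster 3 and 1.29 in cluster 1, and at 0.716 in cluster 5. Col1a1, in contrast, was at 1.30 in cluster 0 and a little above that in clusters 6 (1.44), 3 (1.42) and 5 (1.41). Col11a1, which encodes a chain of a collagen that nucleates fibrils, was listed higher in cluster 0 alone. Its share there was 96.7%, against 71.7% in cluster 2, where it was listed lower, and a mean of 92.8% over the 6 clusters that did not list it.

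Thbs2 encodes a matricellular thrombospondin. It was higher in clusters 0 and 1, with shares of 98.9% in both and levels of 1.44 and 1.46, and was not listed for cluster 3. Fn1 encodes fibronectin. Its level in cluster 0 was 1.25, under those of cluster 3 (1.56), cluster 5 (1.43) and cluster 6 (1.43). Enzymes of collagen maturation followed. Plod2, a lysyl hydroxylase, had shares of 99.1% in cluster 0 and 77.6% in the other cells, and P4ha2, a prolyl hydroxylase subunit, 94.1% and 69.4%. Both had levels in cluster 3 above those in cluster 0, 1.55 against 1.44 for Plod2 and 1.41 against 1.25 for P4ha2.

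Microfibrils are the scaffold on which elastic fibres form. Of 25 genes for them, 4 were listed for cluster 0 and all were higher: Fbn2, Mfap4, Lox and Fbln2. Mfap4, a microfibril-associated glycoprotein, had shares of 92.8% in cluster 0 and 63.9% in the other cells and was listed higher in no other cluster. All 6 other clusters that listed it had 17% or less. The 8 clusters that did not list it had a mean of 76.8%, so the gap of 75.8 points to the next listed cluster leaves these clusters out. Lox, the enzyme that cross-links collagen and elastin, was at 1.33 in cluster 0 and higher still in clusters 3 (1.67) and 5 (1.56). Fbln2, a fibulin, was likewise at 1.27 against 1.82 and 1.71. Among the clusters that listed them, Fbn2 and Mfap4 were highest by level in cluster 0, and Lox and Fbln2 in cluster 3.

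Of 12 small leucine-rich proteoglycans, which regulate collagen fibrils and bind growth factors, 2 were listed higher in cluster 0 (Ogn and Podn) and 1 lower (Lum). Podn, podocan, had shares of 72% and 33.7%, a difference of 38.3 points. The 10 clusters that did not list it had a mean of 39.6%. Lum, lumican, ran the other way, with a ratio of 0.546 and shares of 50.4% in cluster 0, 91.6% in cluster 1 and 72.7% in cluster 2. Its level was 0.592 in cluster 0 against 2.39 in cluster 1. Ccdc80, a secreted matrix protein, and Srpx were further extracellular genes on the higher side. Ccdc80 had shares of 98.7% and 84.0%, and Srpx 85.2% and 52.6%. Basement membrane genes gave 2 listed of 18, both lower: Col15a1 (37.4% against 51.7%) and Col18a1 (53.0% against 54.7%).

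Among secreted signals, Vegfd and Ptn were higher and Pdgfa lower, from a list of 28 paracrine growth factors. Ptn, pleiotrophin, a heparin-binding growth factor, had shares of 69.4% in cluster 0 and 55% in the other cells. Cluster 2 held more, with 84.3% of its cells and a level of 2.45 against 1.41. Gpc3, a glypican that binds growth factors at the cell surface, had a ratio of 1.70 and shares of 98.9% and 77.6%. It shared its higher listing with cluster 1, at levels of 1.52 and 1.32. Pdgfa, a ligand of the fibroblast receptor Pdgfra, had a ratio of 0.666 with nearly equal shares, 67.5% and 65.1%. Wnt modulators gave 2 higher and 1 lower of 32. Sfrp1 was joined by Rspo3, an R-spondin that strengthens Wnt signals, with shares of 75.3% in cluster 0, 77.9% in cluster 3 and 39.2% in cluster 1. Nkd2, an inhibitor inside the cell, was lower (34.0% against 48.5% in the other cells). The list thus holds a Wnt antagonist and a Wnt enhancer on the same side.

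From the BMP list of 21, Gdf10 was higher and Grem1 lower. Gdf10, a ligand of the BMP family, had shares of 40.3% and 18.9% and was listed for cluster 0 alone. Grem1, a secreted BMP antagonist, was at 27.0% in cluster 0 against 61.9% in cluster 2 and 61.6% in cluster 6. Levels of Grem1 were 0.643, 2.05 and 1.46. The IGF list of 12 had 2 higher members. Pappa, a protease that frees IGFs from their binding proteins, had shares of 94.4% and 62.8%, and its level in cluster 5 (1.97) was above that in cluster 0 (1.30). Igfbp2, an IGF-binding protein, was sparser, with 36.1% and 22.4%, and was also higher in cluster 5 (43.7%). No member of the FGF and ERK feedback list (23 genes), of the immediate early genes (21) or of the mesenchymal transcription factors (60) was listed for cluster 0.

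Only 3 genes were listed for cluster 0 and for no other cluster: Stmn2, Egfl6 and Gdf10. All 3 were found in a minority of the cells of cluster 0. Over all control cells Stmn2 was at 18.1%, Egfl6 at 23.9% and Gdf10 at 22.5%. These are under 25.1%, the smallest value that the larger share of a control listing had. That limits lower listings of the 3 genes in other clusters. Being listed for cluster 0 alone is thus not read as a trait of the cluster. Higher listings in other clusters were less limited, and there were none for these 3 genes. Egfl6, a secreted protein with EGF-like repeats, had shares of 42.6% and 20.1%. Stmn2, a stathmin known from neurons, had 25.8% and 16.5%, the lowest share of the 55 higher genes. Another 9 genes were listed higher in no other cluster but lower in some, Snhg12, Plagl1, Mfap4, Podn, Meg3, Col11a1 and 3 further non-coding genes. The other 43 higher genes were listed higher in at least 1 other cluster.

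Chemokine and innate defence genes were split. Cxcl12, the chemokine that binds Cxcr4, had shares of 95.7% in cluster 0, 95.0% in cluster 3 and 73.5% in cluster 6. Cxcl13, a chemokine that attracts B cells, was at 45.7% in cluster 0 against 30.5% in the other cells. Cluster 2 had more of it, at 56.1% and a level of 2.76 against 1.57. Ccl8 was lower (20.9% against 47.6% in cluster 1). Ptx3, a soluble pattern recognition protein, was higher in cluster 0 (79.7%) and in clusters 3 (91.4%), 8 (77.9%) and 7 (77.6%). Saa3, an acute phase protein, was lower in cluster 0. It was at 52.4% in cluster 0 and 80.8% in cluster 1, with levels of 0.355 and 2.48. Vcam1, an adhesion molecule for leukocytes, was at 93.3% in cluster 0, 97.3% in cluster 3 and 69.4% in cluster 6.

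Of 25 imprinted genes, which are expressed from the copy of 1 parent, 4 were listed for cluster 0 and all 4 were higher: Dlk1, Plagl1, Meg3 and Cdkn1c. Dlk1 and Meg3 are neighbours on chromosome 12, at chr12:109452485-109463336 and chr12:109540996-109571729 in RefSeq's annotation of GRCm38.p6. Plagl1, a zinc finger transcription factor, had shares of 90.7% in cluster 0 and 62.1% in the other cells, and no other cluster listed it higher. The 10 clusters that did not list Plagl1 had a mean share of 65.8% and a level of 0.930. Meg3, a long non-coding RNA, was at 99.1% and 83.8%, also higher in no other cluster, with a level of 1.35 in cluster 0 and 0.629 in cluster 8. For Meg3, the 9 clusters without a listing had a mean share of 86.9% and a level of 0.999. Cdkn1c, an inhibitor of the cell cycle, differed from Dlk1, Plagl1 and Meg3. Its level was 1.33 in cluster 0, 1.76 in cluster 1 and 1.24 in cluster 2, and 0.617 in cluster 3. Its shares hardly moved, at 95.5%, 97.4%, 93.7% and 94.3%. The other 21 imprinted genes were not listed for cluster 0.

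Of the 55 higher genes, 6 were long non-coding genes in RefSeq, a group noticed after the values were seen: Snhg12, Gas5, Zfas1, 2410006H16Rik, 1110038B12Rik and Meg3. Of the 59 lower genes with a RefSeq entry, 1 was long non-coding (AY036118), and of the 4353 genes of the control table with an entry, 36 were (0.827%). Snhg12, Gas5 and Zfas1 host small nucleolar RNAs in their introns. Snhg12 had shares of 96.9% and 77.3% and a level of 1.48 in cluster 0, 0.738 in cluster 8 and 0.624 in cluster 2. Gas5 had 99.8% and 94.6%, with levels of 1.37 in cluster 0 and 0.737 in cluster 2. Zfas1 had 96.0% and 77.2%, and 1110038B12Rik 97.6% and 79.5%. Cluster 2 was listed as lower for Snhg12, Gas5, 2410006H16Rik and 1110038B12Rik.

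Hif1a, the transcription factor of the response to low oxygen, had shares of 98.9% in cluster 0 and 83.9% in the other cells, and a level of 1.25 against 1.56 in cluster 3. Plod2 and P4ha2 were the 2 members listed of 26 hypoxia and glycolysis genes, and none of the glycolytic enzymes of that list was listed for cluster 0. Ndufa4l2, a mitochondrial protein related to a respiratory chain subunit, was at 80.6% in cluster 0 and 93.2% in cluster 3. Aldh1a2, which makes retinoic acid, was at 71.5% in cluster 0, 76.9% in cluster 6, 67.9% in cluster 3 and 39.6% in cluster 2. Agtr2, an angiotensin receptor, was at 46.2% in cluster 0, 60.8% in cluster 1 and 18.6% in cluster 3, and the receptor subunit Il6st at 97.0%, with 98.8% in cluster 3. The protease Adamts5, which cleaves proteoglycans, had a ratio of 1.58 and shares of 98.1% in cluster 0, 97.5% in cluster 3 and 55.2% in cluster 6.

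The remaining higher genes were Marcks, Lgalsl, Alcam, Prss23, Plpp3, Cdc42ep3, Ccn3, Pcdh19 and Slfn5, with ratios of 1.29 to 1.64. Marcks, a substrate of protein kinase C, had a value above 0 in 100% of the cells of clusters 0, 3, 8 and 10. The adhesion molecule Alcam was at 68.9% against 41.3% in the other cells, and the protocadherin Pcdh19 at 90.4% against 61.1%. Ccn3, a matricellular protein, was at 53.4% in cluster 0, 70.9% in cluster 3 and 10.7% in cluster 1.

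On the lower side, the lowest ratios belonged to genes that led other clusters. Spp1, osteopontin, had a ratio of 0.231 although its shares were alike, 92.2% in cluster 0 and 91.2% in the other cells. Its level was 0.265 in cluster 0, 0.149 in cluster 3 and 0.107 in cluster 5, against 3.01 in cluster 2, 2.11 in cluster 6 and 1.42 in cluster 1. Mmp3, stromelysin, a protease of the matrix, had a ratio of 0.254, with shares of 45.0% in cluster 0 and 90.9% in cluster 1 and levels of 0.291 and 3.31. Mgp, matrix Gla protein, which inhibits calcification, was found in 21.0% of cluster 0, 67.1% of cluster 6 and 51.7% of cluster 2. Crabp1, which binds retinoic acid in the cell, was at 73.2% in cluster 0 and 96.8% in cluster 1, with levels of 0.337 and 3.41. These 4 genes were low in cluster 3 as well, with Mgp at 0.311 and Crabp1 at 0.235.

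Of 20 matrix proteases and inhibitors, 6 were lower in cluster 0 and only Adamts5 was higher. Besides Mmp3 the lower ones included Mmp2 (gelatinase), the inhibitors Timp1 and Timp3, and Serpine2, which inhibits serine proteases. Mmp2 had shares of 83.7% in cluster 0 and 76.1% in the other cells with a ratio of 0.602, and its level was 0.645 in cluster 0 against 2.22 in cluster 1. Timp1 was at 92.9% and 80.1% with a ratio of 0.683, and at a level of 2.35 in cluster 6. Timp3 was at 41.5% in cluster 0 and 77.4% in cluster 6, and Serpine2 at 29.6% and 57.7%. The list thus has proteases and their inhibitors on the lower side together. Ctsk, cathepsin K, is outside the list and was lower too (71.2% in cluster 0, 93.0% in cluster 1).

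Acta2, smooth muscle actin and the usual marker of myofibroblasts, was listed lower in cluster 0, with a ratio of 0.721. It had a value above 0 in 98.6% of the cells of cluster 0 and 88.1% of the others. Without clusters 4 and 9 among the other cells, Acta2 had a natural log ratio of -0.248, just short of the listing size of 0.25. Its level was 0.756 in cluster 0, above those of clusters 1 (0.111) and 2 (0.138) and under those of clusters 3 (1.71) and 5 (3). Cluster 0 was therefore intermediate in Acta2 and not at the bottom. Tagln2 was the other member listed of 24 contractile genes, with a ratio of 0.757. Tagln, Myl9, Cnn1, Actg2, Myh11 and Lmod1 were not listed for cluster 0, which does not mean that they were absent. Over the clusters that did not list them, cluster 0 among these, mean shares were high for Tagln (94.2%), Myl9 (90.4%) and Cnn1 (60.2%). They were lower for Lmod1 (32.8%), Actg2 (29.6%) and Myh11 (11.2%). Ccn2, a target of TGF-beta, was also lower. Ccn2 was at 37.0% in cluster 0, 90.4% in cluster 5, 73.4% in cluster 3 and 12.5% in cluster 1. It had the same intermediate place as Acta2.

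Of 30 cell cycle genes, Hmgb2, H2afz, Stmn1 and Cdk1 were lower in cluster 0 and the inhibitor Cdkn1c was higher. Cdk1, the kinase of mitotic entry, was at 26.0% in cluster 0, 94.1% in cluster 7 and 81.2% in cluster 8, the clusters of dividing cells, and at 21.5% in cluster 1. Hmgb2, a chromatin protein, was at 50.1% in cluster 0 and 99.6% in cluster 7. H2afz, a histone variant, and Stmn1, which destabilises microtubules, had levels of 0.680 and 0.765 in cluster 0. Tpx2, Smc2, Cks2, Tubb4b, Dek, Hmgb1, Ptma and Ran, all known from division or from chromatin and nuclear transport, were lower as well, with ratios of 0.655 to 0.778. Levels of Tpx2 were 0.797 in cluster 0, 0.777 in cluster 1 and 0.797 in cluster 2. Levels of Hmgb2 were 0.596 in cluster 0 and 0.607 in cluster 1, but 1.42 in cluster 4, 1.94 in cluster 9 and 1.77 in cluster 10.

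Lipid carriers gave 2 lower members of 20. Apoe was at 58.4% in cluster 0 and 82.6% in cluster 2, and Clu, clusterin, at 24.8% and 70.6%. The deiodinase Dio2 was at 11.5% in cluster 0, the lowest share of all 116 genes, against 64.6% in cluster 1 and 45.1% in cluster 2. The nonagouti gene, listed under the symbol a, was at 13.6% against 71.2% in cluster 1. Slc25a5, the ADP/ATP carrier of mitochondria, was lower (ratio 0.747) with shares of 95.4% and 86.0%, and was listed for clusters 4 and 9 alone besides cluster 0, where it was higher at shares of 36.2% and 40.1%. AY036118 and Gm42418, transcripts known to overlap ribosomal RNA sequence, had ratios of 0.237 and 0.401. Their level in cluster 4 was 4.73 and 3.16, and in cluster 9 it was 6.80 and 5.65. The remaining lower genes were Sparcl1, S100a4, Cpxm1, Lgals3, Emp1, Bpgm, Cd9, Tcim, Tnfrsf12a, Cst3, Sema5a, Tm4sf1, Fxyd5, Gng11, Prdx1, Nes, Sat1, Tnfrsf21, Ly6e and Capg, with ratios of 0.580 to 0.775.

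Clusters 4 and 9 are part of the other cells. For the 30 higher and 27 lower genes listed for both, the comparison was recomputed without those cells, a choice made after seeing the data. All 30 higher genes stayed above a log ratio of 0, with ratios from 1.16 to 1.91, and 19 still reached the listing size of 0.25 on the natural log scale. Fbn2 had a log ratio of 0.65 without them, against 0.72 with them, and Col1a1 fell under the listing size (0.21 against 0.33). All 27 lower genes stayed below 0, and 25 still reached the size. Acta2 (-0.248) and Slc25a5 (-0.221) did not. AY036118 changed most, from -1.44 to -0.32, and Gm42418 from -0.91 to -0.32. Among these 27 lower genes, 13 had a larger share in cluster 0 than in the other cells, and 6 did without clusters 4 and 9.

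**Figure D3:**
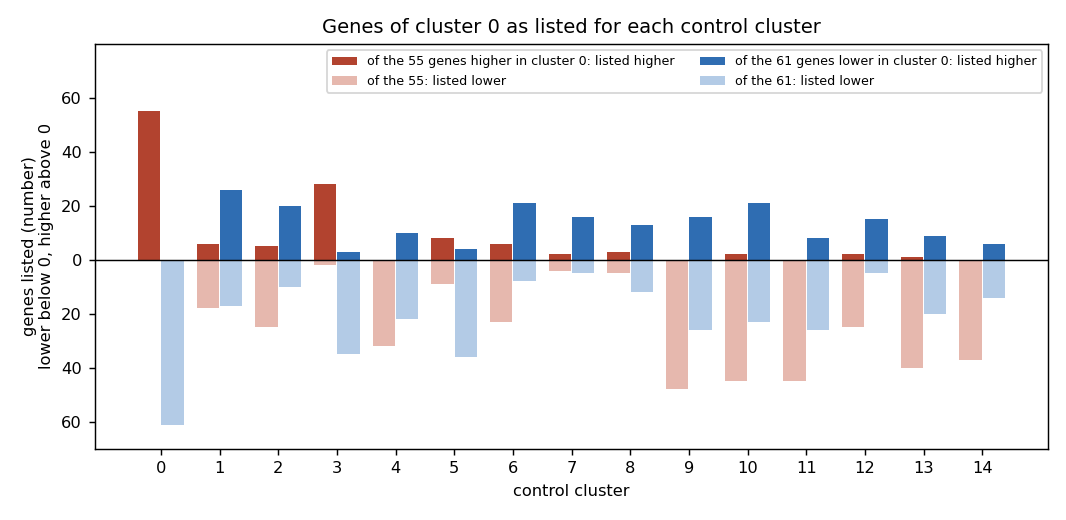
For each control cluster (x axis), the number of the 55 genes higher in cluster 0 (left bars, red) and of the 61 lower ones (right bars, blue) that the authors' deposited table lists as higher (above 0) or lower (below 0) there. Cluster 3 lists 28 of the 55 as higher and 35 of the 61 as lower, and cluster 9 lists 48 of the 55 as lower. Over all 4419 genes of the control table, cluster 3 lists 143 as higher and 93 as lower, and cluster 9 lists 510 and 844.

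The genes of cluster 0 were next followed through the other control clusters. These comparisons share cells, since each cluster is part of the other cells of all the rest, so the values are given side by side. Cluster 3 (11.2% of the cells), led by Thbs1, Vegfd and Ptx3, listed 28 of the 55 higher genes as higher and 2 as lower, Cdkn1c and Agtr2. It listed 35 of the 61 lower genes as lower and 3 as higher, Acta2 and Ccn2 among them. Over all 4419 genes of the control table, cluster 3 listed 143 as higher and 93 as lower. The same direction did not mean the same size. Of the 30 higher genes listed for both clusters, 9 had a larger level in cluster 0 and 21 in cluster 3. Fbn2 (1.24-fold), Marcks (1.15-fold) and Col3a1 (1.12-fold) were above cluster 3 in cluster 0, and Ndufa4l2 (1.44-fold), Fbln2 (1.44-fold), Ptx3 (1.40-fold) and Vegfd (1.38-fold) were above cluster 0 in cluster 3. The largest differences were those of Cdkn1c, 2.15-fold higher in cluster 0, and Acta2, 2.26-fold higher in cluster 3. Spp1 was low in both, but 1.78-fold higher in cluster 0.

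Clusters 1, 2 and 6 went the other way for most genes of cluster 0 that they listed. Of the 55 higher genes, cluster 1 listed 6 as higher and 18 as lower, cluster 2 listed 5 and 25, and cluster 6 listed 6 and 23. Of the 61 lower genes, they listed 26, 20 and 21 as higher, and 17, 10 and 8 as lower. Over all 4419 genes of the control table, these 3 clusters listed 239, 248 and 143 as higher and 184, 143 and 152 as lower. The 6 genes higher in both clusters 0 and 1 were Gpc3, Col3a1, Thbs2, Ccdc80, Cdkn1c and Agtr2. Cluster 5, led by Acta2, Actg2 and Tagln, listed 8 of the 55 as higher and 9 as lower, and 36 of the 61 as lower. Over all genes, cluster 5 listed 163 as higher and 207 as lower. Its Pappa, Prss23, Lox and Fbln2 levels (1.97, 1.80, 1.56 and 1.71) were above those of cluster 0 (1.30, 1.29, 1.33 and 1.27). Over all clusters, 22 of the 55 higher genes had their highest listed share in cluster 0 alone and 14 in cluster 3 alone. Another 5 (Marcks, Col3a1, Col1a1, Col1a2 and Thbs2) shared their highest value between cluster 0 and another cluster. By level the numbers were 21 and 18. These counts favour cluster 0, because the 55 genes were chosen for being higher there. They also leave out clusters that did not list a gene, and 3 of the genes were listed for cluster 0 alone.

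**Figure D4:**
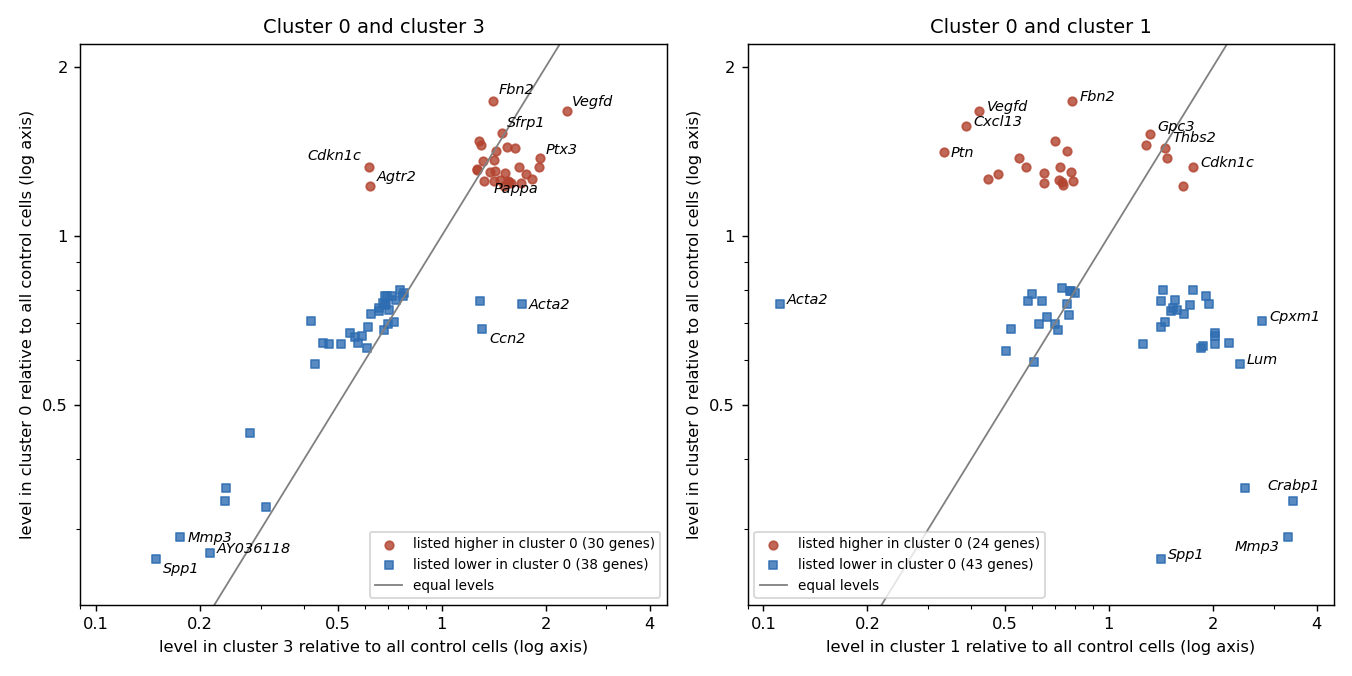
Level of each gene listed for both clusters, relative to all control cells (1 is the library average; log axes), in cluster 0 (y axis) and in cluster 3 (left, x axis) or cluster 1 (right, x axis). Red circles are genes higher and blue squares genes lower in cluster 0, and the line marks equal levels. Most genes lie near the line for cluster 3, with Acta2, Ccn2, Cdkn1c and Agtr2 among those off it, and on both sides far from it for cluster 1.

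The same genes were then followed in the FGF2 library, as percentages of all its cells with a value above 0, recovered from the authors' cluster comparisons in each library. These are whole libraries of 1 sample each, so a different make-up of cells and a different level per cell cannot be told apart, and the depth of both was unknown. Of the 55 higher genes, 43 were in both tables. A share at least 1.5 times that of control was found for 2 of them and a share at most 1/1.5 for 18, while 23 lay between. Over all 2318 genes compared, 7.51% were higher and 15.3% lower by this rule. The median ratio of FGF2 to control was 0.731 for the 43 genes and 0.945 for all genes compared. A gene found in over 66.7% of the control cells cannot be called higher by this rule, which was the case for 33 of the 43.

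The lowest ratios among the higher genes were those of signalling and matrix genes. Igfbp2 was found in 24.7% of cells without and 4.16% with FGF2, Adamts5 in 78.3% and 14.2%, and Pappa in 68.1% and 14%. Matrix genes differed among themselves. Col11a1 was at 77.2% and 22.5% and Col3a1 at 92.4% and 32.0%, whereas Col1a2 was at 93.2% and 90.6% and Fn1 at 89.0% and 95.9%. Cxcl12 was at 77.9% and 44.3%, Vcam1 at 72.2% and 42.1%, and Ptn at 57.4% and 27.2%. Agtr2 (33.1% and 78.4%) and Stmn2 (18.1% and 28.0%) were the 2 genes called higher. Dlk1 (47.9% and 53.4%), Meg3 (86.4% and 92.6%) and Gas5 (95.4% and 96.5%) lay close to their control values.

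Of the 4419 genes of the control table, 2318 were compared with the FGF2 library, so a missing value there was common. The FGF2 table did not list 12 of the 55 higher genes for any cluster. These were Fbn2, Vegfd, Ogn, Cxcl13, Rspo3, Ptx3, Podn, Egfl6, Lgalsl, Srpx, Ccn3 and Slfn5, so 3 of the 5 leading genes of cluster 0 have no value there. A gene that is not listed may be absent, low or evenly expressed, and which of these holds was not tested. Of the 61 lower genes 60 were in both tables, with 12 higher, 9 lower and 39 between, and a median ratio of 1.05. Of these 60, 23 were found in over 66.7% of the control cells and could not be called higher. Mmp3 was at 53.3% and 98.9%, Grem1 at 35.2% and 71.2%, Clu at 28.5% and 82.2% and Tm4sf1 at 37.7% and 91.4%. Saa3 (57.5% and 8.81%), Ccn2 (37.8% and 10.1%) and Acta2 (89.9% and 31.9%) were lower in the FGF2 library.

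**Figure D5:**
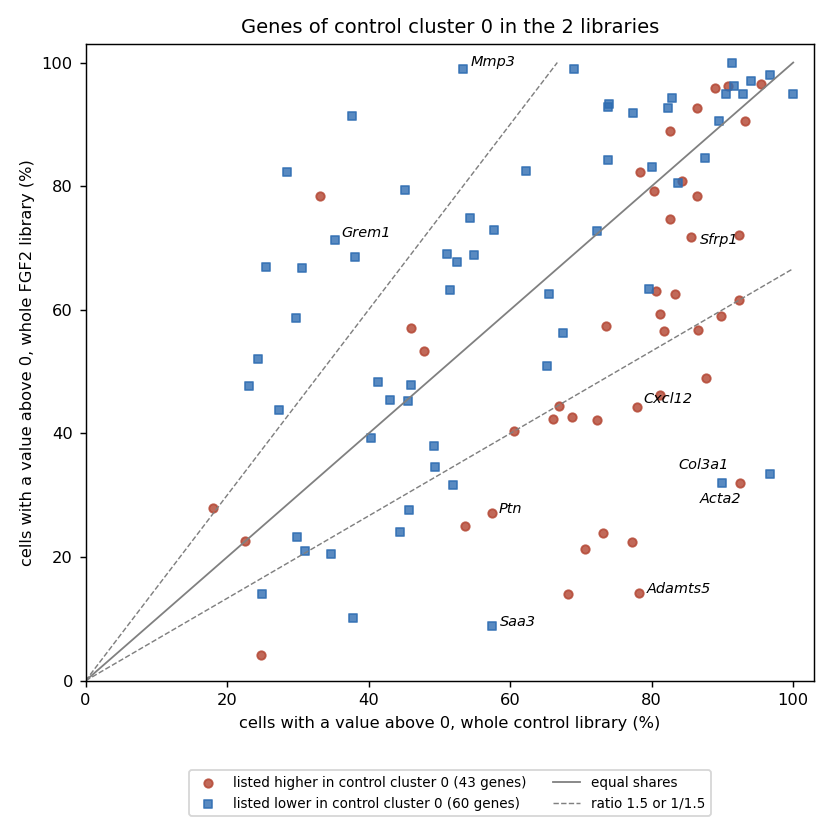
Cells with a value above 0 (% of the library), for the control library (x axis) and the FGF2 library (y axis), recovered from the authors' tables, for the 43 higher (red circles) and 60 lower (blue squares) genes of control cluster 0 found in both. The solid line marks equal shares and the dashed lines ratios of 1.5 and 1/1.5; Adamts5, Col3a1 and Acta2 lie far below the lines, and Mmp3 and Grem1 above them.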

How the data were processed

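Single cells of 1 control and 1 FGF2 library were compared within each library by the authors. Per the labels' protocols, cells were captured in droplets with a 3' kit. Cell Ranger 4.0 and build mm10 come from the submitters' processing notes. The sources used here give no filters, doublet treatment, normalization, clustering or test. Per the file headers, each table gives a log ratio of averages, deposited by the authors and read as a natural log, because the average over all cells of a gene then came out alike from different clusters (median CV 0.000515%, against 0.00802% with log2, over 8 genes). The fractions deposited by the authors, the parts of cells with a value above 0, appear as percentages. P-values deposited by the authors rest on cells of 1 library and are left out. All listings had a p-value under 0.01 and a size of at least 0.25 on the natural log scale. Each control listing also had a share of at least 25.1% inside or outside the cluster, so sparser genes could not be listed.

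Each cluster's part of the cells was found by least squares over 2077 control genes with listings in 2 or more clusters (sum 100.04%, residual 0.0238 percentage points). From it came each gene's share over the library and its level relative to all cells, (average + 1) of the cluster over (average + 1) of all cells. The arithmetic was tested on simulated tables. Python 3.11.15, numpy 2.4.6, pandas 2.3.3 and scipy 1.17.1 were used. The design had allowed for averages per cluster, with no test, since there is 1 library per group. The integrated table was not used here. The members and lists were chosen with earlier results of these data known. Named were the 5 marker genes, the 15 largest and 15 smallest ratios, the 15 largest gaps to the next listed share, and listed members of 26 function and 18 cell type lists; other genes were named after their values were seen. Some listed genes are counted but not reported here by name.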

Additional observations from a re-analysis of the deposited data

How the results depend on the processing

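The count of genes listed higher in control cluster 0, 55, became 18 with a ratio of at least 1.5 and 19 without clusters 4 and 9 among the other cells, where only the 30 genes listed for both could be recomputed. Shares at least 10 points above the other cells were found for 57 genes, 49 of the 55 and 8 listed lower. The count was 55 by the authors' adjusted p-value under 0.05. The count listed lower, 61, became 27 with a ratio of at most 1/1.5, 12 by shares at least 10 points below, 39 by the adjusted p-value and 25 of 27 without clusters 4 and 9. The choice of clusters 4 and 9 was made after seeing the data. Genes with their highest listed share in cluster 0, higher and lower together, numbered 29, 21 by level and 35 among stromal clusters only. Without 6 ties with another cluster, an alternative added after seeing the data, they numbered 23. The cluster's part of the cells was 16.9% with genes listed in at least 4 clusters and 16.8% with parts forced to sum to 100%. No paired analysis was possible because there was 1 library per group, with no shared replicate beyond it and no test. The depth per cell was unknown, so low shares cannot be told from shallow cells, and a gene that is not listed has no value of its own.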
